A study of Homo sapiens with 10 samples.

Results

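NFAT and NF-kB are families of transcription factors that are switched on from the cell surface, and 9 genes of their pathways were followed here through every deposited list of m6A peaks: NFATC2, NFATC3, PPP3R1, RELA, NFKB2, NFKBIA, NFKBIE, MAP3K14 and MALT1. They were picked by gene name, as the lists spell it, out of 5000 genes named in at least 1 of the 7 lists. m6A is the methyl mark on adenosines in RNA, and MeRIP-seq finds it by pulling down RNA fragments with an antibody and sequencing them beside an input. All samples were V16A, a cell line of prostate cancer that is resistant to castration. Peaks were nonetheless called in 12 of 14 T and NK cell markers in at least 1 list, which is at odds with that label, and the labels mention no other cells. Pulled-down RNA came from 2 hypoxia libraries, 2 normoxia libraries and 1 library named EU 40min, read here as RNA labelled for 40 min with ethynyl uridine, which marks newly made transcripts. The oxygen level, its duration and the oxygen condition of the EU library are not stated in the labels. Each of the 5 libraries had its own peak list, and hypoxia and normoxia each had 1 further list for the condition as a whole, called the condition list below.

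NFAT proteins rest in the cytoplasm in a phosphorylated form. When calcium rises, the phosphatase calcineurin removes the phosphates and NFAT enters the nucleus. NF-kB dimers are held back by inhibitors of the IkB family, and kinases that mark these inhibitors for destruction, or that start the processing of a precursor subunit, release them. In T cells both arms are started by the antigen receptor, NF-kB through a complex that holds MALT1, while in prostate epithelium NF-kB is known mainly from inflammatory signalling.

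Of the 9 genes, 3 had a called peak in hypoxia replicate 1, 5 in hypoxia replicate 2, 1 in each normoxia replicate and 4 in EU RNA. The mean was 4 ± 1.41 genes in hypoxia (SD, n = 2) and 1 ± 0 in normoxia (SD, n = 2), a difference of 3. The background ran the same way: a peak was called for 25.2% of the 5000 genes in hypoxia replicate 1, 43.0% in hypoxia replicate 2, 2.78% and 17.9% in the normoxia replicates and 47.8% with EU. The shares of the 9 genes (33.3%, 55.6%, 11.1%, 11.1% and 44.4%) differ from these by less than 2 genes in every library, since 1 gene makes 11.1%. With every list shortened to the 212 peaks of the shortest, the difference between conditions was 0. A list of that length can hold few of the 9 genes, as the shortest names 139 of the 5000. The value could thus hardly lie far from 0 and does not tell why the full lists differ.

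**Figure D1:**
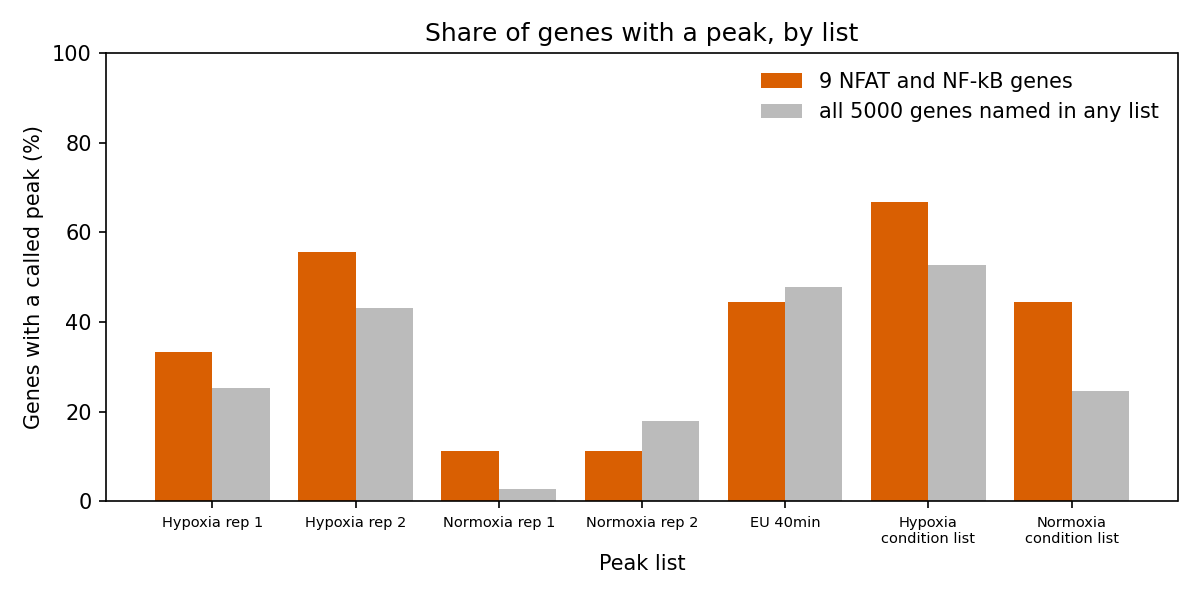
Bars give the percentage of genes with at least 1 called m6A peak in each of the 7 lists, for the 9 NFAT and NF-kB genes (orange) and for all 5000 genes named in any list (grey). Both kinds of bar are highest in the hypoxia condition list (66.7% and 52.7%), and the orange bar is at 11.1% in both normoxia libraries.

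Peak numbers of the 9 genes were set beside the length of each list. There were 14 in hypoxia replicate 1, 21 in hypoxia replicate 2, 2 and 1 in normoxia replicates 1 and 2, and 11 in EU RNA. Per 1000 peaks of a list, that was 4.86 (exact 95% binomial interval 2.66 to 8.15), 3.17 (1.96 to 4.84), 9.43 (1.14 to 33.7), 0.640 (0.0162 to 3.56) and 2.18 (1.09 to 3.90). The intervals of all 5 libraries overlap, and they cover counting error only. On this scale hypoxia minus normoxia was -1.02, smaller than the spread of the normoxia libraries (SD 6.22, n = 2). The difference was 3.38, with hypoxia higher, without normoxia replicate 1, -5.42 without normoxia replicate 2, -0.174 without hypoxia replicate 2 and -1.87 without hypoxia replicate 1.

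Across conditions, NFATC3 and RELA were hypoxia-only, meaning a peak in both hypoxia libraries and in neither normoxia library. That is 2 of the 6 genes that any of these 4 libraries named, beside 15.3% of the 3226 genes that could be called so. None was normoxia-only, a call made for 0.155% of those genes. An exact two-sided permutation test of 2 libraries against 2 can go no lower than p = 0.333, its value for the peak numbers of NFATC3 and of RELA, and it gave p = 1 for each of the other 7 genes. Any hypoxia-only gene gets 0.333 by construction, so the test adds nothing to that call. Its value is also fixed for a gene with peaks in at most 1 of the 4 libraries, as for all of the other 7 but PPP3R1. Without hypoxia replicate 1, 5 genes met the rule, which then asked for a peak in hypoxia replicate 2 alone of the hypoxia libraries. That is the longest of the 4 lists (6621 peaks), so the count rises by construction. The share of all genes under that looser rule was not computed. MAP3K14 and MALT1 had EU peaks but were missing from all 4 hypoxia and normoxia libraries, which is 2 of the 4 genes with an EU peak, beside 46.1% of all 2389 genes with one.

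**Figure D2:**
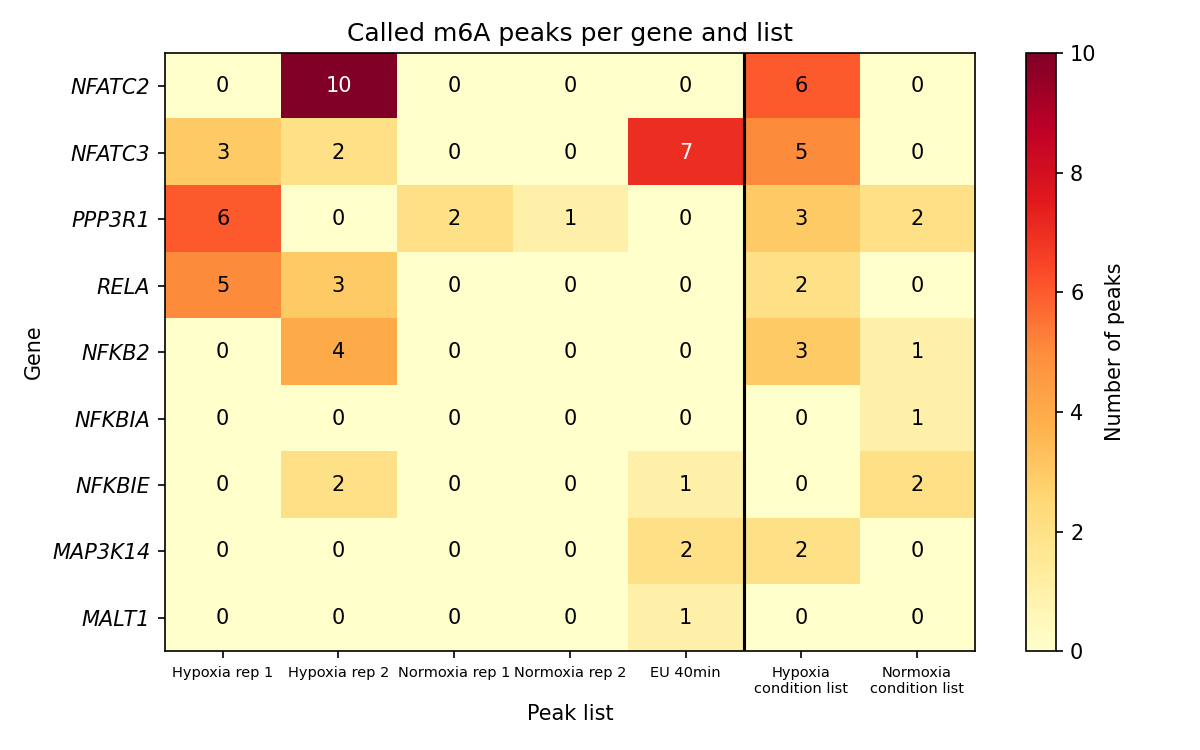
Numbers and colours give the called m6A peaks of each gene (rows) in each list (columns), and the line sets the 2 condition lists apart from the 5 libraries. NFATC3 and RELA have peaks in both hypoxia libraries and in no normoxia library, and PPP3R1 is the only gene of the 9 with peaks in the normoxia libraries.

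NFATC2 and NFATC3 encode NFAT proteins, the targets of calcineurin, and carried the most peaks of the 9 genes, 16 and 17 over the 7 lists. Their gene spans are also the longest of the 9, 175877 and 143890 bases. With peaks of a gene and list that share a deposited p counted once, PPP3R1 had the most, 12, beside 6 for NFATC2 and 9 for NFATC3. NFATC2 lies on chromosome 20, 51386963 to 51562839 (RefSeq, GRCh38.p14, the build of the lists, hg38), on the minus strand. It had 10 peaks in hypoxia replicate 2 and 0 in each of the other 4 libraries, so 1 library supplied all of its peaks in the libraries. The smallest deposited p, 7.1e-07, was shared by 2 of its peaks, at 51523085 to 51523285 and 51523484 to 51523884, and 11.2% of the peaks of that list had a smaller p. The hypoxia condition list had 6 NFATC2 peaks, all with the same p of 9.5e-06, and the normoxia condition list had 0. Merged over the 7 lists the peaks formed 9 sites (runs of peaks whose exon blocks overlap), of which 5 were in both hypoxia replicate 2 and the hypoxia condition list. The other 4 were in hypoxia replicate 2 alone and lay between 1990 and 3587 bases from the 3′ end of the gene span.

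An NFATC2 peak of hypoxia replicate 2 reached a start site. It had 2 exon blocks, of 78 and 22 bases, and the larger, 51542642 to 51542719, has its 5′ boundary at the internal start site of a shorter RefSeq transcript, while the smaller lies in an exon upstream of it. The reference sequences used here hold the letters of a peak only where it touches a start site, so this stretch is printed to show the letters under the peak there. A like stretch from PPP3R1 stands beside it, where a block of a hypoxia replicate 1 peak covered 49 bases of the start window from base 2 of the RefSeq transcript. Both are the RNA strand of 30 bases from RefSeq (GRCh38.p14), written as DNA, NFATC2 from chr20:51542690-51542719 and PPP3R1 from chr2:68252502-68252531.
NFATC2: agcaggaagctcgcgccgccgtcgccgccg
PPP3R1: tgccttgaggttgcgggtcagcgcgagccg
The letters GGAC, the core of the commonest m6A motif, were searched on the RNA strand and would be in capitals. Neither stretch holds them, while 11.0% of 35116 RefSeq start windows do in their opening 30 bases. That says only that these letters are not in these windows.

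NFATC3 (chromosome 16, 68085370 to 68229259, plus strand) had 3 peaks in hypoxia replicate 1, 2 in hypoxia replicate 2, 0 in both normoxia libraries and 7 in the EU library. Both hypoxia libraries were above both normoxia libraries. The condition lists held 5 for hypoxia and 0 for normoxia. Its main site was called in 3 libraries and in the hypoxia condition list, in 9 peaks between 68122140 and 68138560 over 3 exon blocks that cover 1195 bases. In hypoxia replicate 2 a block of 797 bases filled most of the longest of them (68122190 to 68122986, p 0.00036). In hypoxia replicate 1 the same exon had a peak of 150 bases at 68122439 to 68122588 and the start of a spliced peak (p 9.5e-06 for both), and in the EU library it had 4 peaks of 100 or 101 bases, all with p 2.4e-06. The remaining EU peaks lay elsewhere: 68191532 to 68191632 overlapped the hypoxia condition list, while 68226523 to 68226622 and 68226921 to 68227020 were in no other list. The peak at 68226523 to 68226622 shared 92 bases with a peak named RP11-96D1.11 on the minus strand and 78 with a peak named RP11-96D1.10 on its own strand, both from the EU library, so its gene is uncertain. Hypoxia replicate 1 alone had a peak at 68229010 to 68229160, 99 bases from the 3′ end of the span.

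PPP3R1 encodes the regulatory subunit of calcineurin, the calcium-binding partner of its catalytic subunit. The gene lies on chromosome 2, 68178857 to 68252532, on the minus strand. It had 6 peaks in hypoxia replicate 1, 0 in hypoxia replicate 2, 2 and 1 in normoxia replicates 1 and 2, 0 with EU, and 3 and 2 in the hypoxia and normoxia condition lists. The longer of the hypoxia lists thus had none, and both normoxia lists had some. It was the 1 gene of the 9 with a peak in both normoxia libraries, which 1.27% of the 3226 genes had. Over the 4327 genes with a peak in any of the 5 libraries, PPP3R1 was also the only gene present in hypoxia replicate 1 and both normoxia libraries and absent from hypoxia replicate 2 and EU.

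The normoxia peaks of PPP3R1 fell on places also called in hypoxia. A peak of 99 bases at 68252219 to 68252317, 215 bases from the 5′ end of the span, had the same coordinates in hypoxia replicate 1 (p 2.6e-06), normoxia replicate 1 (p 1e-05) and both condition lists. Another shared site, nearer the 3′ end, was called at 68180884 to 68180983 in hypoxia replicate 1, 68180785 to 68180884 in normoxia replicate 1 and 68180835 to 68180934 in normoxia replicate 2. The hypoxia replicate 1 and normoxia replicate 1 peaks there meet in a single base, and the normoxia replicate 2 peak bridges them. The best hypoxia replicate 1 peak, 68179747 to 68179945 (p 6.6e-07), was nearer still to the 3′ end and in no normoxia list. The hypoxia replicate 1 peak that holds the stretch printed above runs on, in a block upstream of it, to 68256138, beyond the RefSeq 5′ end. The gene model behind the lists is thus longer there than the RefSeq span, and the printed stretch is not at its start.

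**Figure D3:**
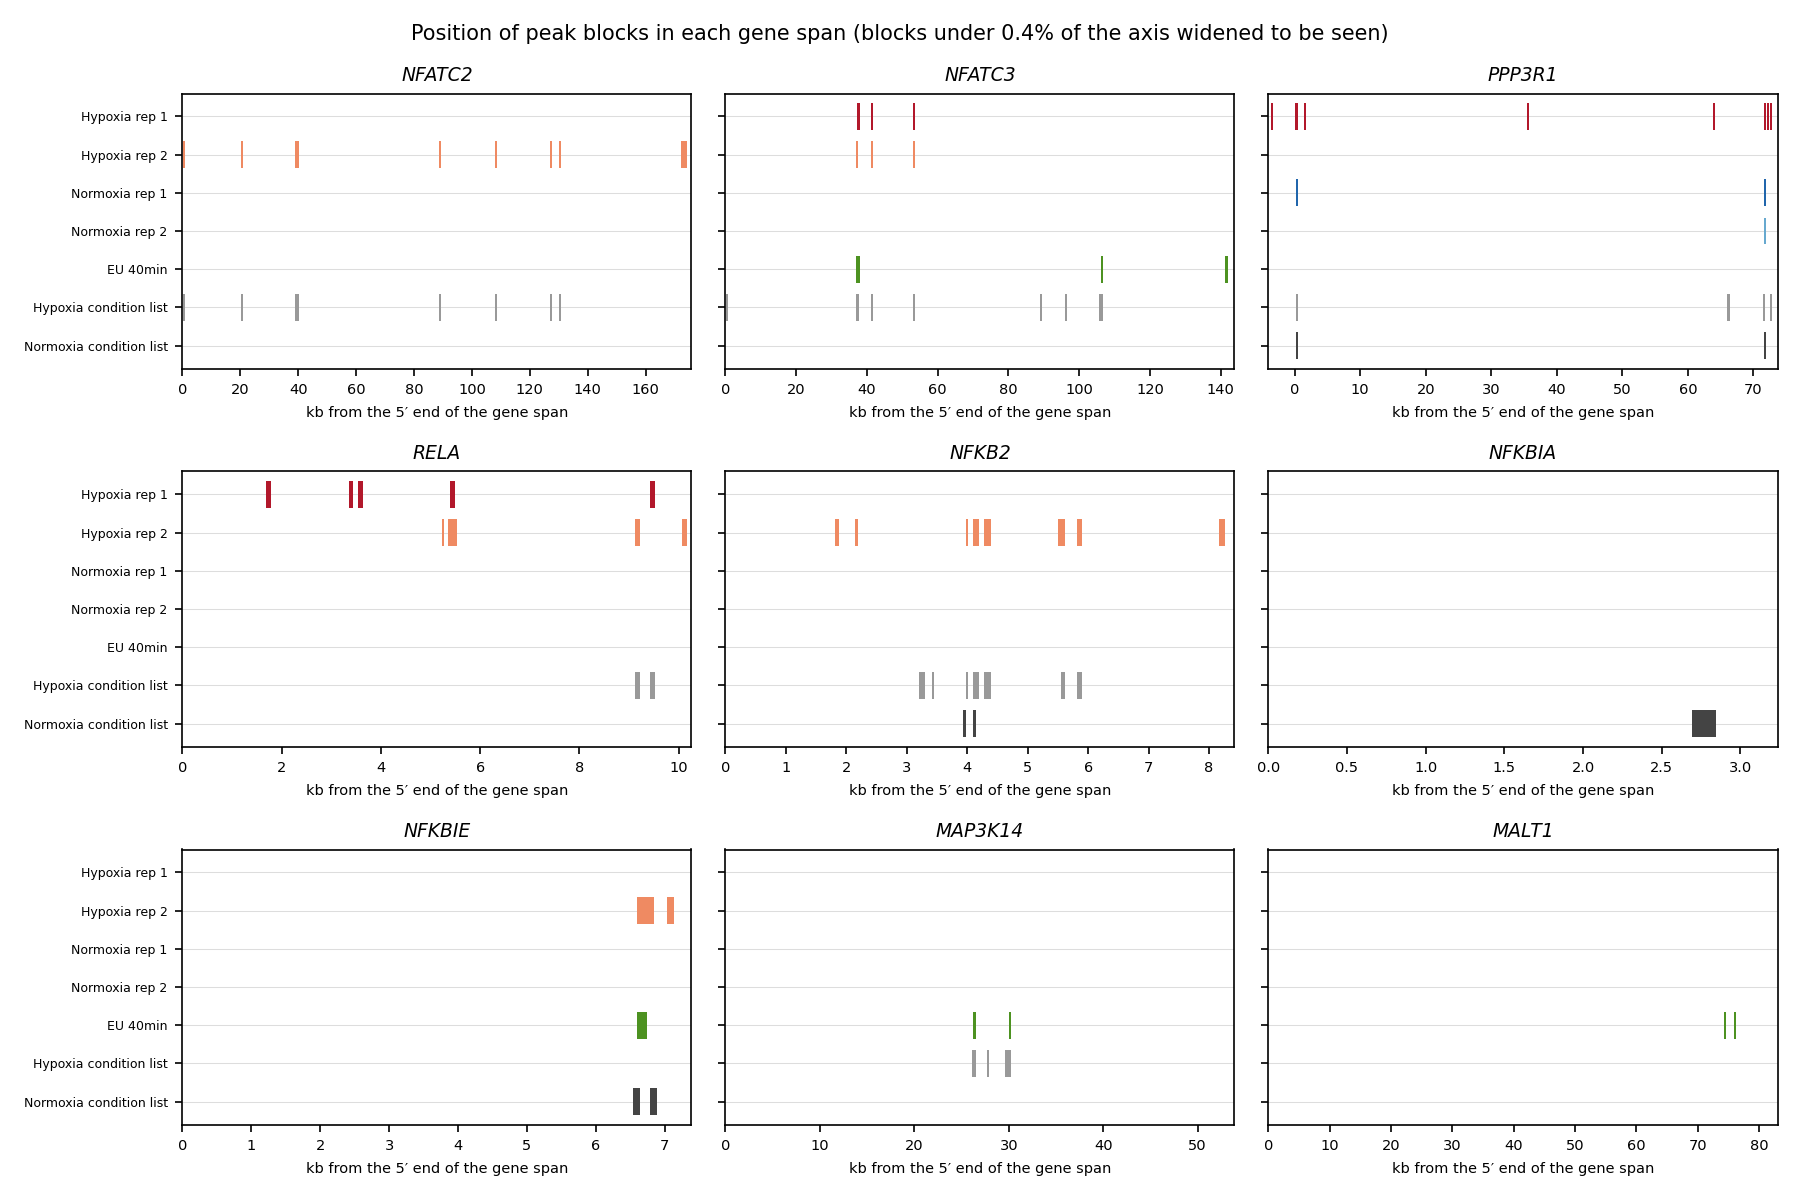
Each panel maps the exon blocks of all called peaks of a gene along its RefSeq span, in kilobases from the 5′ end, with a row for each of the 5 libraries and 2 condition lists. NFKBIE peaks crowd near the 3′ end, NFATC2 peaks spread over the span in hypoxia replicate 2, and PPP3R1 has rows filled at both ends in hypoxia replicate 1 and normoxia replicate 1.

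RELA encodes the subunit of NF-kB that carries much of its transcription activity, and NFKB2 encodes the precursor of the subunit used by the non-canonical arm. RELA (chromosome 11, 65653601 to 65663857, minus strand) had 5 and 3 peaks in the hypoxia libraries, 0 in both normoxia libraries and 0 in the EU library. Both hypoxia libraries had more peaks than either normoxia library, but at places that mostly differed. Of the 7 RELA sites, 1 was in both hypoxia libraries, at 65658324 to 65658624, as a peak of 101 bases in replicate 1 and of 2 exon blocks in replicate 2. The deposited p of the RELA peaks in replicate 2 ran from 0.0015 to 0.0098, and 88.6% of that list had a smaller p than the best of them, while the best in replicate 1 had 1.5e-06. The hypoxia condition list had 2 RELA peaks, both with p 0.0065, and left out the site that the replicates share. When only the better-ranked 50% of every list was kept, neither RELA nor NFATC3 was hypoxia-only.

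NFKB2 (chromosome 10, 102394110 to 102402529, plus strand) had 4 peaks in hypoxia replicate 2, 0 in the other 4 libraries, 3 in the hypoxia condition list and 1 in the normoxia condition list. Its best peak in hypoxia replicate 2 crossed 2 introns, with blocks of 4, 86 and 110 bases from 102398082 to 102398494 (p 1.3e-05). The hypoxia condition list had this peak with the same ends and p 0.0025, and the normoxia condition list had an overlapping peak at 102398032 to 102398257 with p 9.3e-06. So the place with a peak in the hypoxia library was also named under normoxia, although neither normoxia library had a peak there.

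NFKBIA and NFKBIE encode IkB alpha and IkB epsilon, inhibitors that hold NF-kB in the cytoplasm, and both were in the normoxia condition list without a peak in either normoxia library. NFKBIA (chromosome 14, 35401513 to 35404749, minus strand) had 0 peaks in all 5 libraries and in the hypoxia condition list. Its only peak was in the normoxia condition list, at 35401906 to 35402055 (p 9.1e-05), 393 bases from the 3′ end. NFKBIE (chromosome 6, 44258166 to 44265551, minus strand) had 2 peaks in hypoxia replicate 2, 1 in the EU library, 0 in the other 3 libraries, 0 in the hypoxia condition list and 2 in the normoxia condition list. The condition lists thus point the other way from the libraries for this gene. All its peaks lay within 1000 bases of the 3′ end. Its main site, 44258662 to 44259009, joined a hypoxia replicate 2 peak (44258712 to 44258960, p 9.8e-06), the EU peak (44258811 to 44258960, p 0.0032) and both normoxia condition peaks (p 1.2e-05), and the EU peak had the same 5′ boundary as the one of hypoxia replicate 2.

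NFKB2 and NFKBIA are also known as genes that NF-kB itself switches on, and their upstream sequence is shown for that reason. A form of the kB motif, GGGA then any 2 bases then TTCC, was searched on both strands in the 250 bases before 12 RefSeq start sites of 8 of the 9 genes. It was found before 1 start site of NFKB2 and the start site of NFKBIA, 2 of 12 windows, beside 1.40% of 35116 windows of all genes. That NFKB2 start site lies inside the gene span rather than at its 5′ end, and the remaining NFKB2 windows held no match. Both genes were known targets beforehand, so the count says nothing of the 9 genes as a set. NFKB2 is from chr10:102395674-102395703 (plus strand) and NFKBIA from chr14:35404811-35404840 (minus strand), both 30 bases from RefSeq (GRCh38.p14) with the match in capitals.
NFKB2: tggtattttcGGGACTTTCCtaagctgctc
NFKBIA: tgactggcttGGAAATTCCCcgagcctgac
The NFKBIA match is to the other strand. The matches begin 21 and 81 bases before the start site. A match describes the letters, and binding was not measured here.

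MAP3K14 encodes the NF-kB-inducing kinase of the non-canonical arm, and MALT1 the protease of the complex that links antigen receptors to NF-kB. MAP3K14 (chromosome 17, 45263119 to 45317020, minus strand) had 2 peaks in the EU library, 0 in the other 4 libraries, 2 in the hypoxia condition list and 0 in the normoxia condition list. Both EU peaks, at 45290512 to 45290759 (p 2.8e-05) and 45286853 to 45287001 (p 0.00017), overlapped hypoxia condition peaks, which had p 0.001. MALT1 (chromosome 18, 58671465 to 58754477, plus strand) had 1 peak over all 7 lists, in the EU library, at 58745766 to 58747678 in 2 exon blocks of 27 and 274 bases (p 0.00011). It was the only gene of the 9 that the EU list held and the other 6 lists did not, a state shared by 37.0% of the 2389 EU genes. With 1 EU library, these calls have no replicate check.

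**Figure D4:**
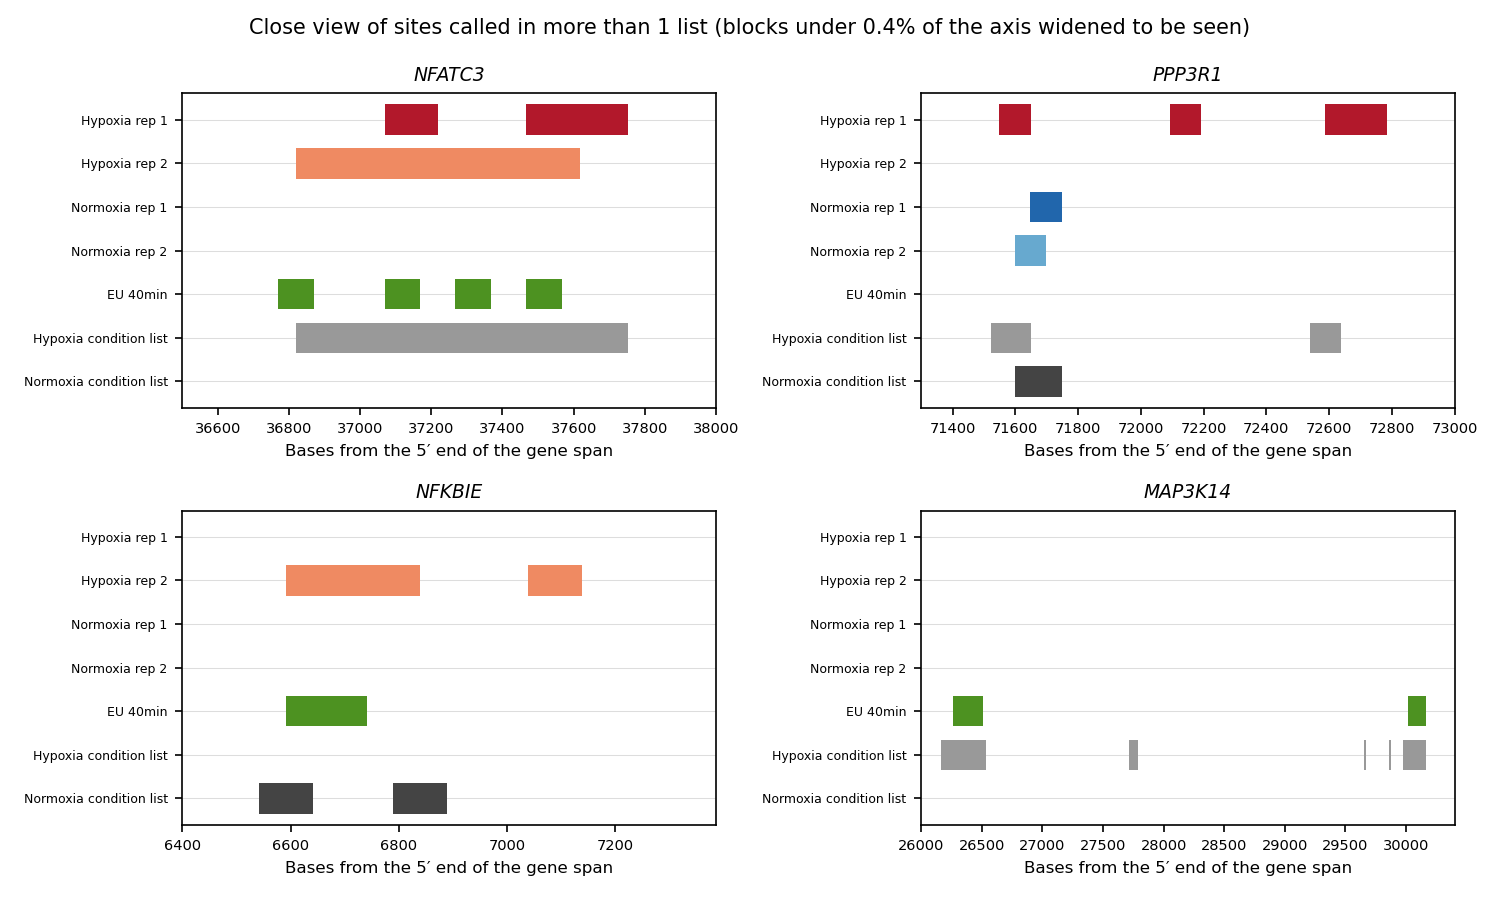
Close view of peak blocks in bases from the 5′ end of the gene span, with a row for each list. The NFATC3 panel shows the exon called as 1 block of 797 bases in hypoxia replicate 2 and as 4 pieces in the EU library, the PPP3R1 panel the staggered hypoxia and normoxia peaks, and the NFKBIE and MAP3K14 panels the EU peaks over condition list peaks.

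The 76 peaks formed 41 sites, of which 18 were in at least 2 of the 7 lists and 5 in at least 2 of the 5 libraries: 2 in PPP3R1 and 1 each in NFATC3, RELA and NFKBIE. Of the 14 peaks of hypoxia replicate 1, 3 (21.4%, with an exact 95% interval of 4.66 to 50.8) lay over hypoxia replicate 2 peaks, in NFATC3 and RELA, beside 47.4% of all peaks of that list. When at least 50% of both peaks had to overlap, 1 of the 14 did (7.14%). In the reverse direction, 3 of the 21 peaks of hypoxia replicate 2 (14.3%) lay over hypoxia replicate 1 peaks, beside 19.2% of all. Of the 11 EU peaks, 5 (45.5%) were overlapped by hypoxia replicate 2, beside 29.7% of all EU peaks, and 2 (18.2%) by hypoxia replicate 1, beside 15.6%. The hypoxia condition list overlapped 7 of them (63.6%), beside 34.3%, and the normoxia condition list 1 (9.09%), beside 18.6%. Neither normoxia library overlapped any, beside 2.30% and 15.1% of all EU peaks in normoxia replicates 1 and 2. The member shares thus lay on both sides of the shares over all peaks, and none of these differences was tested. The interval treats peaks as independent, which peaks of 1 gene are not.

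Some peaks of the same gene and list carried equal deposited p. Whether such peaks are pieces of 1 call was not tested. Of the 142 pairs of peaks that share a member and a list, 41 had equal p (28.9%). Over all genes, such pairs had equal p in 27.0% to 43.9% of cases across the 7 lists, and pairs from different genes in 0.366% to 0.764%. The pooled member share hides differences between lists. It was higher than over all genes in the hypoxia condition list, with 20 of 33 pairs (60.6%, beside 29.4%). It was lower in hypoxia replicate 1 (17.9%, beside 27.0%), hypoxia replicate 2 (14.3%, beside 32.4%) and EU (31.8%, beside 43.9%). Normoxia lists held at most 2 member pairs each. NFATC2 fell from 16 peaks to 6 distinct values of p and NFATC3 from 17 to 9, while PPP3R1 kept 12 of 14 and NFKB2 all 8. Peaks of several exon blocks made up 3 of 14, 7 of 21, 0 of 2, 0 of 1 and 1 of 11 member peaks in hypoxia replicates 1 and 2, normoxia replicates 1 and 2 and the EU library, beside 35.9%, 36.7%, 29.7%, 9.92% and 19.8% of all peaks. Within 1000 bases of the 3′ end of the gene span lay 12 of the 76 peaks, and the share over all matched protein-coding genes was 15.7% to 21.8% by list.

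The rest of the pathway was counted over 92 further genes. Of these, 38 were named in at least 1 of the 7 lists. A peak was called for 13 and 26 of them in the hypoxia libraries, 1 and 3 in the normoxia libraries and 15 in the EU library. In the same order it was 25.2%, 43.0%, 2.78%, 17.9% and 47.8% of the 5000 genes, which are all named in a list. The 38 are thus the base that compares with these shares, and the difference was not tested. Among the 30 that any of the 4 libraries named, 10 were hypoxia-only and 0 normoxia-only, beside the 15.3% and 0.155% above. They included NFKBID, an atypical IkB, PRKCQ, a kinase that acts between the antigen receptor and NF-kB, TRAF1, an adaptor, TNIP1, a partner of the deubiquitinase A20, and 4 known targets, the chemokine gene CCL3, the immediate early gene IER3, the survival gene BCL2L1 and the cytokine gene LTB. The call rests on the 4 libraries alone: in the normoxia condition list CCL3 and BCL2L1 had 1 peak each, and NFKBID had 0 in the hypoxia condition list. TRAF1 had 3 and 6 peaks in the hypoxia libraries and 0 in the other 3, with best p of 1.7e-05 and 1.9e-05. The count of hypoxia-only genes was 24 without hypoxia replicate 1, a looser rule that raises it by construction. It was 1 in the better-ranked 50% of each list, and 22 by the condition lists.

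By group, hypoxia-only genes were 1 of 8 with a peak in the 4 libraries in the NFAT arm, 1 of 2 among NF-kB subunits and inhibitors, 3 of 6 among kinases and adaptors, 1 of 5 among negative regulators and 4 of 9 among target genes. RELB and REL, which encode the remaining NF-kB subunits of the Rel type, NFATC1 and BCL10, a partner of MALT1, appeared in none of the 7 lists. NFKB1, which encodes the other precursor subunit, had 4 peaks in hypoxia replicate 2, 7 in the hypoxia condition list and 0 elsewhere. TNFAIP3, which encodes A20, had 1 peak, in the EU library (p 0.00028).

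Pathway genes shared the presence pattern of most members over the 5 libraries. Like NFATC3, in both hypoxia libraries and EU, were among others BCL2L1, IER3, LTB and TNIP1, in a pattern of 214 of 4327 genes. Like RELA, in both hypoxia libraries alone, were among others CCL3, NFKBID, PRKCQ and TRAF1, in a pattern of 278 genes. NFATC2 and NFKB2 were in hypoxia replicate 2 alone, the pattern of 917 genes (21.2% of the 4327). Of these, 12 were from the pathway list, among them NFKB1 and MAP3K7, the kinase TAK1. NFKBIE, in hypoxia replicate 2 and EU, shared its pattern with TAB2, a TAK1 partner, and TNF, a cytokine, among 340 genes. MAP3K14 and MALT1 had the EU-alone pattern of 1101 genes (25.4%), as did CALM3, GSK3B, N4BP1, TNFAIP3 and TRAF6. PPP3R1 had no pathway gene like it. The pathway genes that could be alike were the 30 with a peak in the 4 libraries and 5 more with a peak in EU alone of the 5. Whether pathway genes share a pattern more often than other genes was not tested.

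Markers of cell types were looked up in the same lists, since several pathway genes are expressed strongly in lymphocytes. Of 14 T and NK cell markers, 8 and 9 were called in the hypoxia libraries, 4 and 0 in the normoxia libraries and 9 with EU. CD4 and IL7R had none in any list. Of 5 genes of leukocytes at large, 5, 5, 2, 1 and 5 had a peak in the same order, while 0 of 6 B cell and 0 of 6 macrophage and monocyte markers did in any of the 5. The hypoxia condition list held 2 of the latter, CD68 and FCGR3A, with 2 peaks each. Of 13 prostate and epithelial markers, 3 and 4 were called in the hypoxia libraries, 1 and 6 in the normoxia libraries and 8 in the EU library. KRT8, KRT18, CDH1 and STEAP2 had none in any list. TRAC, CD3D and CD3E, genes of the T cell receptor complex, and PTPRC, a gene of leukocytes in general, each had peaks in both hypoxia libraries and in the EU library. Other markers of these lists differed. TRAC also had 2 peaks in normoxia replicate 1, and CD3G, of the same complex, had 0 in hypoxia replicate 1. CD8A and CD8B were called in the EU library alone of the 5. The pan-leukocyte genes LCP1 and ARHGDIB had peaks in normoxia as well. PPP3R1 had a peak in the libraries with 8, 4 and 0 T and NK markers (hypoxia replicate 1 and normoxia replicates 1 and 2) and none in the 2 libraries with 9. RELA had peaks in both hypoxia libraries, with 8 and 9 of these markers, and none in the EU library, with 9, while NFATC3 had peaks in all 3. The part of these markers in the results was not tested. A list does not measure expression, and more transcript, more marked transcript and a longer list cannot be told apart.

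**Figure D5:**
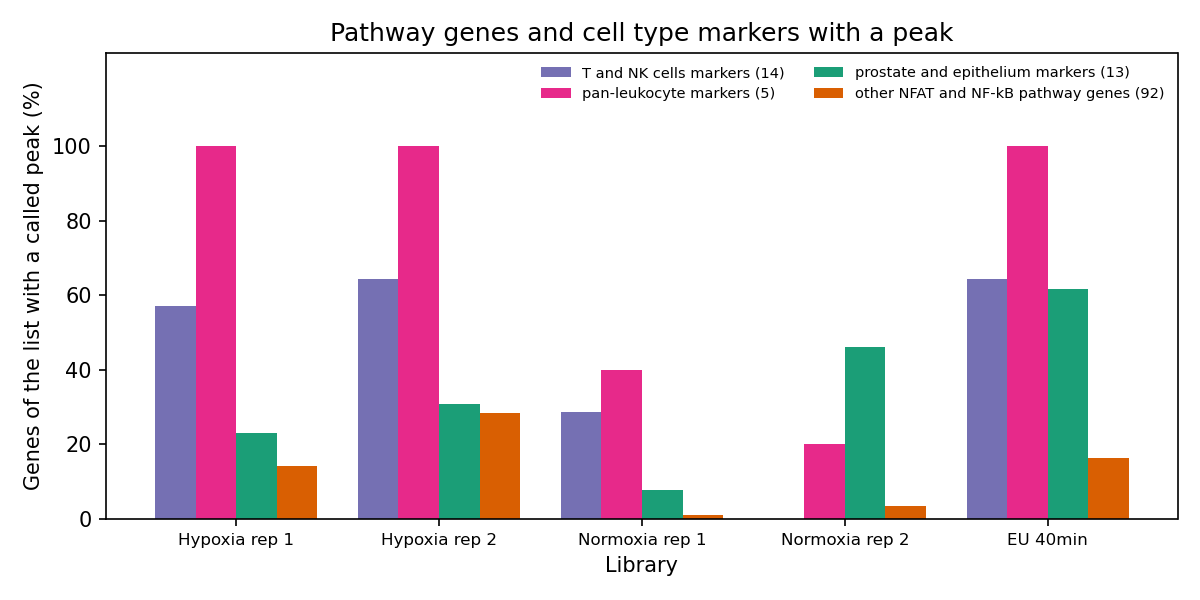
Bars give the percentage of genes with a called peak in each of the 5 libraries, for T and NK cell markers (14 genes), pan-leukocyte markers (5), prostate and epithelial markers (13) and 92 other NFAT and NF-kB pathway genes. T and NK cell markers have no bar in normoxia replicate 2, where 6 of 13 prostate and epithelial markers have a peak, and the pathway genes are highest in hypoxia replicate 2 (26 of 92).

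The condition lists and the libraries often named different members. In the hypoxia condition list 6 of the 9 genes had a peak and in the normoxia condition list 4, beside 52.7% and 24.6% of all genes. NFATC2, NFATC3, RELA and MAP3K14 were in the hypoxia list and not the normoxia list. That is 4 of the 8 members in either list, beside 62.8% of the 3308 genes in either. NFKBIA and NFKBIE were in the normoxia list alone, and PPP3R1 and NFKB2 in both. Of the 3308 genes, 2637 were in the hypoxia list and 1231 in the normoxia list. The shares of all genes in the normoxia list alone and in both were not computed, so these calls are counts only. Of the 4 members of the normoxia condition list, 3 (NFKB2, NFKBIA and NFKBIE) had no peak in either normoxia library, beside 42.9% of all genes there. Of the 6 in the hypoxia condition list, MAP3K14 had none in either hypoxia library, beside 26.5%.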

How the data were processed

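Peak lists of 5 pulled-down libraries and 2 conditions were read; inputs and reads were not used here, so depth is unknown and the lists hold calls rather than methylation levels. The submitters' processing notes name STAR and hg38. How peaks were called, at which threshold and with which inputs, and how the condition lists were made, is not stated there, nor is the use of strand, so overlapping genes are uncertain. The deposited lists have 12 BED columns without a header. The deposited p-value was read from column 5 because of its range, as the file does not name it, and is the authors' own value for each peak. It was used to rank peaks within a list. The remaining deposited numbers are positions and block counts.

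Members were matched by name in column 4. Starts were moved by 1 to count from 1. Peaks overlapped when exon blocks on the same strand shared at least 1 base. Nothing in the labels says that replicates came from separate cultures, so the permutation p reflects library-to-library spread that may be technical. The members, lists and rules were chosen with earlier results of these data known. All 9 members were named. Of the pathway list, genes with a peak in both libraries of a condition, up to 5 with EU peaks and none in the 4, 7 fixed genes and genes alike in pattern were named; some of these are counted but not reported here. Gene spans and sequences are from RefSeq (GRCh38.p14); all 9 members and all 92 pathway genes matched by symbol. Overlap and calling were tested on simulated lists. Python 3.11.15, pandas 2.3.3, numpy 2.4.6, scipy 1.17.1 and matplotlib 3.10.9 were used. Alternatives changed the peak threshold, width, list length, gene assignment, libraries, overlap and pairing.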

Additional observations from a re-analysis of the deposited data

How the results depend on the processing

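Of 42 alternatives over 6 results, 3 reversed the direction, 13 moved the value by more than its spread or interval, or a count by over 1.5 times, and 26 did neither, although wide spreads let values such as -5.42 and -0.174 beside -1.02 pass as unmoved and the pairings cannot move a difference; counting peaks of a gene with equal p once and the crossed pairing were chosen after seeing the data. The difference in members with a peak, 3, was 0 with lists shortened to 212 peaks and 2 to 4 without 1 replicate. Lists that short name few genes and leave little room for any count above 0. The difference per 1000 peaks, -1.02, reversed to 5.64 in the better-ranked 50% of each list, to 3.66 among peaks of median width or more and to 3.38 without normoxia replicate 1, in a range of -5.42 to 3.38 without 1 replicate. Hypoxia-only members, 2, came to 0 with the smallest p, 1 with wide peaks, 0 with shortened lists, 4 by the condition lists, and 2 to 5 without 1 replicate. Members in EU and in none of the 4 libraries, 2, came to 0 with shortened lists and 1 by the condition lists. The share of hypoxia replicate 1 member peaks called again in replicate 2, 21.4%, was 0 with the smallest p and 7.14% with at least 50% of both peaks overlapping, inside its interval. Hypoxia-only pathway genes, 10, came to 1 with the smallest p, 0 with shortened lists, 22 by the condition lists, and 10 to 24 without 1 replicate. Fewer libraries to meet raise these counts by construction. Otherwise the cause was not tested.

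Under the replicate block both differences, 3 and -1.02, were kept by construction, with paired exact p of 0.5 and 1, where 2 pairs allow no p below 0.5. The deviations of libraries with equal numbers correlated at -0.0978 over 3226 genes on the log2 scale and at -0.105 by presence, and crossing the numbers left both differences as they were. Nothing in the labels pairs the replicates.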
